A study of Mus musculus with 6 samples.

Results

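The endothelial genes described here are 36 genes of the vessel lining: receptors, ligands and secreted proteins, transcription factors, junction and adhesion proteins, and proteins of caveolae, nitric oxide synthesis and GTPase signalling. They were chosen by name, as every probe set with 1 of these symbols as its single gene symbol in the array's annotation. All 36 genes were found, through 63 probe sets, among 18193 genes with a probe set of 1 symbol. Of the 36 genes, 21 had 1 probe set and the others had up to 5. A probe set is the group of short probes on the array that reads 1 transcript. For 32 of the genes at least 1 probe set was bright enough to be tested, 51 probe sets in all, and 4 genes (Acvrl1, S1pr1, Dll4 and Apln) are given as values only.

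RNA came from whole kidneys of C57BL/6 mouse embryos at embryonic day 12.5, as 3 biological replicates of wild-type and 3 of Ret-deficient kidneys, each on its own Affymetrix array. The source field names the mother as the knockout, whereas titles and genotype fields name the embryonic kidney, and the latter were followed. Ret is the receptor tyrosine kinase through which GDNF drives branching of the ureteric bud, and the design asks what its loss changes in the kidney. The labels name no Ret allele, litter or number of embryos per sample.

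At this stage the kidney has no glomeruli and its vessels are a plexus of simple endothelial tubes that runs through the stroma around the ureteric bud branches. VEGF receptors and the angiopoietin receptor Tek drive the growth and stability of such a plexus, VE-cadherin and claudin-5 seal the contacts between its cells, and ETS factors such as Erg and Fli1 hold the endothelial gene programme in place. Several of these genes are not endothelial alone: Tal1, Lmo2 and Lyl1 also act in blood progenitors, and von Willebrand factor, Fli1 and Pecam1 are also made by megakaryocytes and platelets.

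The labels were checked on Ret, whose brighter probe set read 13315, 11042 and 10193 in the 3 wild-type kidneys and 93.3, 479.8 and 334.1 in the Ret-deficient ones. Background was gauged on each array by the brightest of 27 bacterial control probe sets, which read 97.2 to 186.9. By this gauge 58 of the 63 endothelial probe sets were above background on all 6 arrays, and the brightest probe set of each of the 36 genes was, so the vessel lining was represented in every kidney. Wild-type replicate 1 stood apart in RNA quality: the ratio of the 3 prime to the 5 prime control probe set was 10.69 for beta-actin and 4.91 for Gapdh, against 3.88 to 5.21 and 1.86 to 2.31 on the other arrays. Differences without this array are given beside those that it moved most. In a whole organ fewer endothelial cells and less RNA per cell cannot be told apart, and the arrays were scaled to a common trimmed mean, so every value is relative to the rest of the kidney's RNA.

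Endothelial genes did not differ detectably between the genotypes. None of the 51 tested probe sets passed an adjusted p of 0.05 in limma, where 0% of all 22519 tested probe sets did, and the smallest adjusted p of a member was 0.9218. None had an unadjusted p under 0.05 either, beside 5.37% of all tested probe sets. With 1 probe set per gene, 19 of the 32 members had a negative and 13 a positive log2 difference (Ret-deficient minus wild-type, after 16 signal units were added to each value). The share of negative differences over all genes was 49.5%. Centring each array on its median shifted all genes upward, to a median of 0.115 with 30.8% negative, and 12 of the 32 members were then negative and 20 positive. The median member stood at -0.05, and the median of all 11581 tested genes at 0.003. The groups did not overlap in 2 of the 32 members, Flt4 and Rasip1, beside 11.8% of all genes.

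The data bound these differences more tightly for some genes than for others. The 95% interval of the log2 difference lay within a 2-fold change in either direction for 22 of the 32 members and reached beyond it for 10, and it included 0 for all 32. Among the narrowest were those of Ramp2, with -0.06 (interval -0.41 to 0.28), and Cd34, with 0.02 (-0.38 to 0.43). The widest was that of Vwf, with -0.24 (-2.41 to 1.94). With 3 arrays a group, the smallest p an exact permutation test of a single gene can reach is 0.1.

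**Figure D1:**
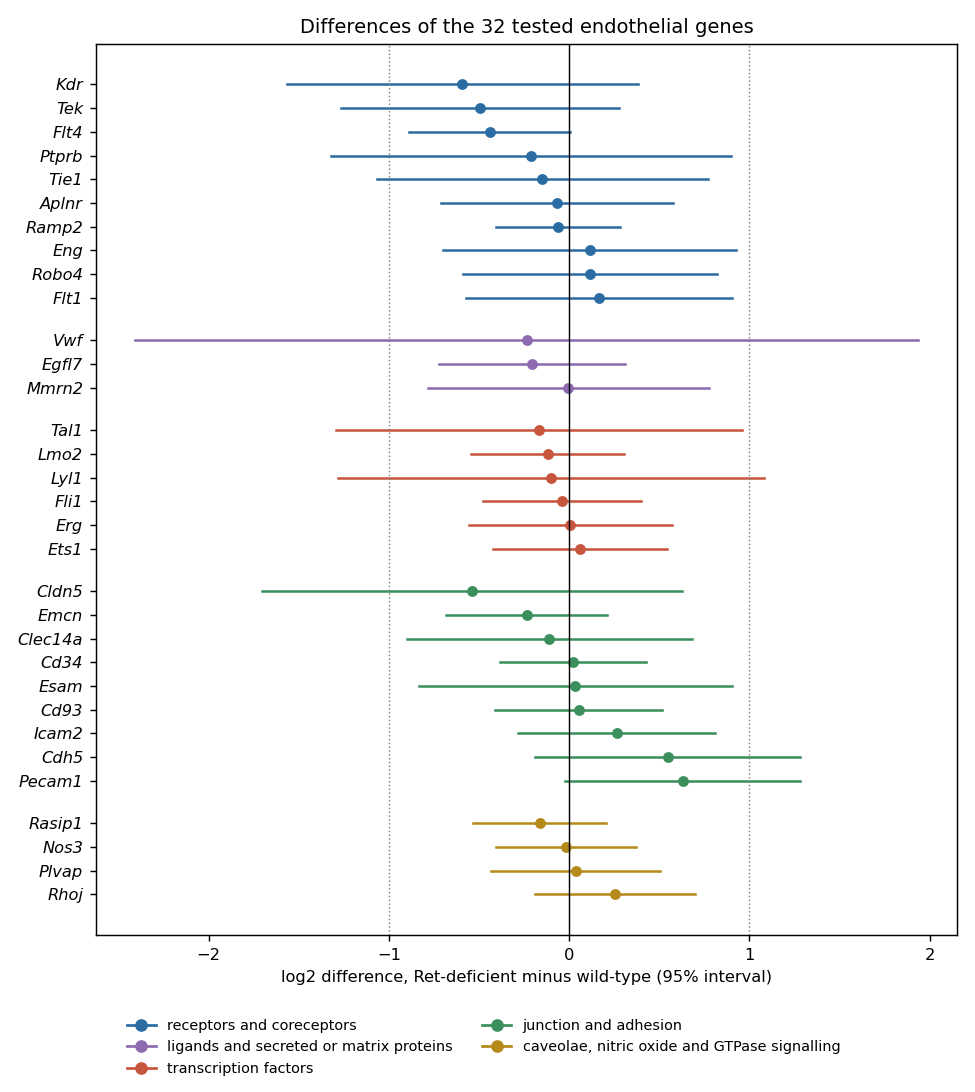
Log2 difference, Ret-deficient minus wild-type, of the brightest tested probe set of each of 32 endothelial genes (points) with its 95% interval from the limma fit (bars), by role and n = 3 arrays per group. Dotted lines mark a 2-fold change, and every interval includes 0.

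Receptors and coreceptors are the largest role group, with 12 genes, of which 10 were tested. Negative differences were found in 7 of these and positive ones in 3 (median -0.11), and the groups overlapped at the brightest probe set of all but Flt4. Kdr, the main signalling receptor for VEGF-A, read 3668, 1461 and 1560 in wild-type and 1938, 1162 and 1066 in Ret-deficient kidneys. Wild-type replicate 1 was far above the other 5 arrays, whose values overlapped. The log2 difference of Kdr was -0.59 (SE 0.41, adjusted p = 0.9486 in limma), and without wild-type replicate 1 it was -0.17. Tek, the angiopoietin receptor, read 14651, 6695 and 8202 against 8279, 6324 and 5471, again with wild-type replicate 1 alone at the top. Its difference was -0.50 (SE 0.32) with that array and -0.17 without it.

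Flt4, the receptor for VEGF-C, came closest to a lower level in Ret-deficient kidneys. Its brighter probe set read 7710, 6528 and 5455 in wild-type and 4507, 4588 and 5289 in Ret-deficient kidneys, so that every Ret-deficient value lay below every wild-type value, the nearest pair by a small margin. The log2 difference was -0.44 (SE 0.19, adjusted p = 0.9218 in limma) and kept a range of -0.57 to -0.32 over all alternatives. The dimmer probe set of Flt4 did not separate the groups, with 2314, 2492 and 2039 against 1841, 2513 and 1535.

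The groups of the other receptors overlapped at every tested probe set. Tie1, the partner of Tek, had -0.15 (SE 0.39; 0.18 without wild-type replicate 1), and Ptprb, the endothelial phosphatase that restrains Tek, had -0.21 (SE 0.47; 0.23 without that array). Flt1, the VEGF receptor that acts largely as a decoy, had 0.17 (SE 0.31) at its brightest probe set and -0.23 and 0.37 at the other tested ones. Its values thus had no common direction. Eng and Robo4 had 0.11 each (0.37 and 0.36 without wild-type replicate 1), but the dimmer probe set of Eng had -0.18. Ramp2, the adrenomedullin receptor's partner protein, read 9969 to 11071 on all 6 arrays. It was the steadiest of the 32 tested genes (1.11-fold between the highest and the lowest array). Aplnr, the apelin receptor of venous and sprouting endothelium, had -0.07 at its brighter and 0.60 at its dimmer probe set. Acvrl1, the BMP9 receptor, and S1pr1, the sphingosine phosphate receptor, were too dim to be tested. Acvrl1 read 586.1, 141.9 and 238.5 against 231.9, 205.3 and 186.6, and S1pr1 read 312.5, 157.6 and 219.0 against 501.1, 290.8 and 227.2.

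**Figure D2:**
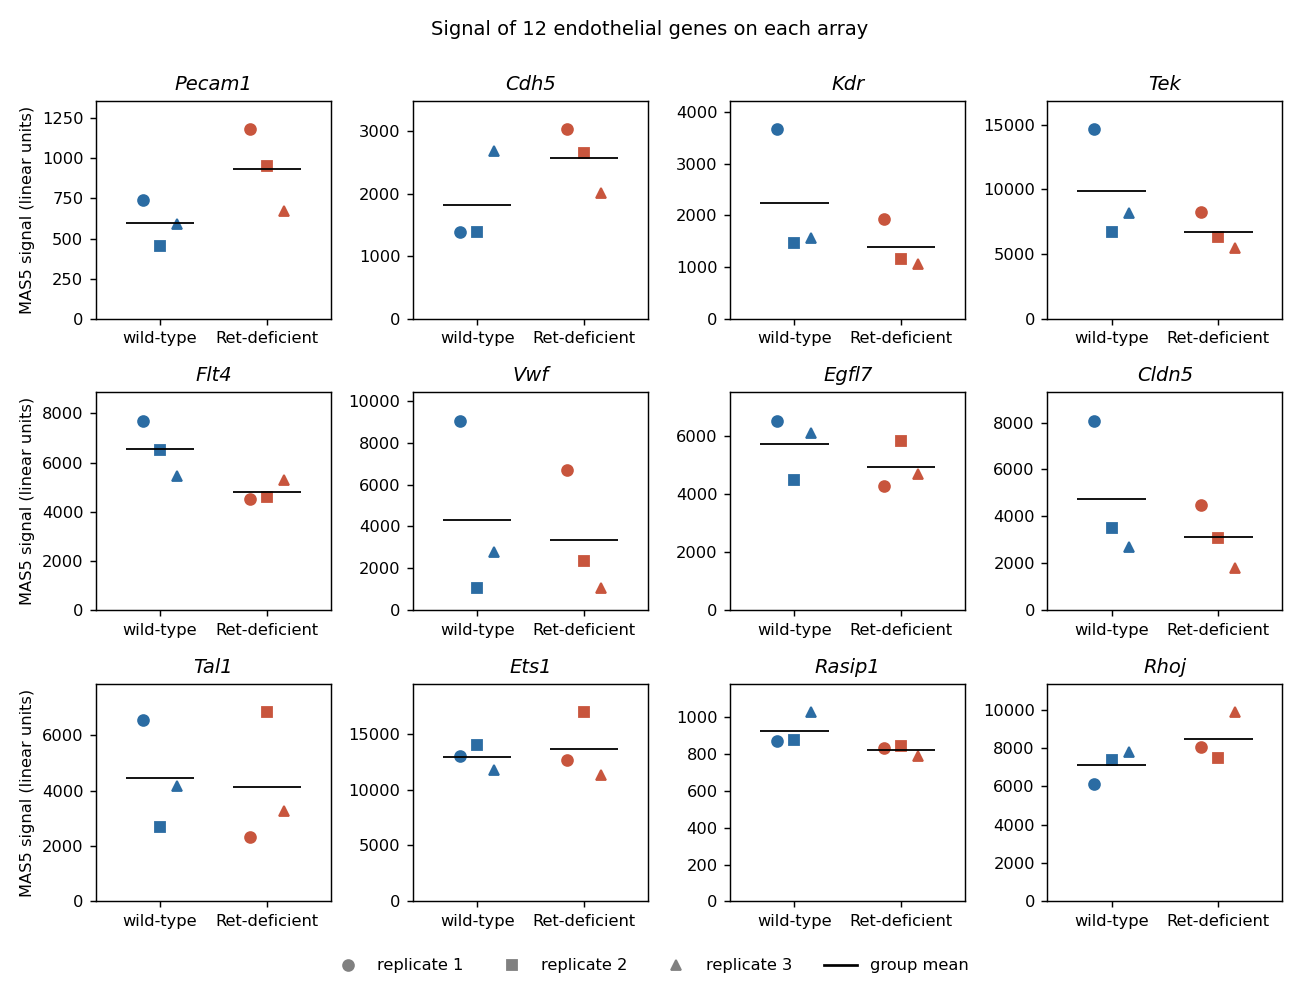
MAS5 signal (linear units, axes from 0) of the brightest probe set of 12 endothelial genes on each array, with symbols for the replicate numbers and a line at the group mean, n = 3 per group. Kdr, Tek, Vwf and Cldn5 share a high wild-type replicate 1, and only Flt4 and Rasip1 have groups that do not overlap.

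The promoter windows of several of these genes are shown because Kdr, Tek, Tie1 and Cldn5 (with Vwf) had the same highest array, wild-type replicate 1, and the same lowest, Ret-deficient replicate 3, while Rhoj had these arrays the other way round; the 5 genes were picked after their values were seen. Each is the stretch of 250 bases before the start of the gene in RefSeq (build GRCm38.p6), with matches on either strand in capitals. The letters searched were GGAAGT and, as further cores bound by ETS factors, the run AGGAAA and the run CCGGAA. An E-box was searched as CAGCTG, and a GATA core was searched as AGATAA; the searches may overlap.
Kdr, chr5:75978456-75978705, minus strand: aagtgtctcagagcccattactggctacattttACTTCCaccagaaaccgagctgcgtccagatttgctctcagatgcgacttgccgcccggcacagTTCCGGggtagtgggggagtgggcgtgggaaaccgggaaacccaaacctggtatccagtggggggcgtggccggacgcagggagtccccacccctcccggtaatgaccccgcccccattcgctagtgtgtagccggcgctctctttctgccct
Tek, chr4:94739039-94739288, plus strand: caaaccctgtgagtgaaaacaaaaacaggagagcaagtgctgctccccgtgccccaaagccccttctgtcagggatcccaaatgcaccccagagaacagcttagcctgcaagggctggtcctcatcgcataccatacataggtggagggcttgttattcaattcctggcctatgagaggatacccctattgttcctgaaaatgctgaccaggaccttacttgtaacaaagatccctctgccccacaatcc
Tie1, chr4:118489850-118490099, minus strand: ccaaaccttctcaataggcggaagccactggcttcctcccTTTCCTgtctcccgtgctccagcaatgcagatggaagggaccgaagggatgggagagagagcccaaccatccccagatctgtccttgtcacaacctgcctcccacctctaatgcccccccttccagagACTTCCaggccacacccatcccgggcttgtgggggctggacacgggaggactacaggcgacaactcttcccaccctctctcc
Cldn5, chr16:18776597-18776846, plus strand: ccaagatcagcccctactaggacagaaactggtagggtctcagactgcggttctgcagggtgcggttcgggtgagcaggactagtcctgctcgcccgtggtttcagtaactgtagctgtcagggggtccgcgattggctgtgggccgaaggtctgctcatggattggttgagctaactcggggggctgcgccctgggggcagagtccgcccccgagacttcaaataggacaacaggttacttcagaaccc
Rhoj, chr12:75308063-75308312, plus strand: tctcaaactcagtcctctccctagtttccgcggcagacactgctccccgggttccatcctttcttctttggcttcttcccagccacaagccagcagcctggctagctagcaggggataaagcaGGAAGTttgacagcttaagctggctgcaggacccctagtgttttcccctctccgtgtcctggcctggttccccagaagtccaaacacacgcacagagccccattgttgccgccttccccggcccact
These letters did not set the group apart: Kdr and Tie1 hold 2 matches each, Rhoj 1, and Tek and Cldn5 none in this window. Of the 36 members, 19 had a window, and GGAAGT stood in 6 of them (31.6%, against 22.2% of 27025 genes). The run AGGAAA stood in 8 (42.1%, against 28.2%). The third ETS core, the E-box and the GATA core stood in 2 members each (10.5%), against 13.6%, 14.7% and 11.4% of all genes. A gene with several starts was counted once if any of its windows held the letters, and a match describes the sequence and is not a binding site.

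Of the 5 ligands and secreted or matrix proteins 3 were tested, all with negative log2 differences and none past the test. Vwf, which carries clotting factor VIII and tethers platelets, varied more between kidneys than any other tested member: 9071, 1058 and 2801 in wild-type and 6699, 2350 and 1044 in Ret-deficient kidneys. Its highest and lowest arrays differed 8.69-fold, and each genotype held 1 very high kidney, so the difference of -0.24 (SE 0.91) was far inside the spread. It became 0.56 without wild-type replicate 1. Egfl7, a secreted endothelial protein, read 6514, 4463 and 6102 against 4249, 5818 and 4670 at its brightest probe set, a log2 difference of -0.21 (SE 0.22). Its other tested probe sets, all dimmer, had -0.70, -0.51 and -0.09. Mmrn2, an endothelial matrix glycoprotein, read 13394, 7048 and 11393 against 13326, 11182 and 7157 at its brightest probe set, with a difference of -0.004. Its other tested probe sets, all dimmer, had -0.33, -0.37 and -0.41. Both genes overlapped between the groups at every tested probe set. Dll4, the Notch ligand of arterial and tip cells, read 486.9, 121.6 and 229.7 against 262.8, 367.9 and 193.1 at its brighter probe set, and Apln, the apelin gene, read 326.8, 198.5 and 289.4 against 217.2, 280.0 and 264.5. These values were too dim for the test and overlapped as well.

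All 6 transcription factors were tested, 4 with negative and 2 with positive differences and a median of -0.07. Erg and Fli1, the ETS factors of the mature endothelium, had 0.01 (SE 0.24) and -0.04 (SE 0.19) at their brighter probe sets. Their dimmer ones had the opposite signs, -0.05 and 0.05. Ets1 read 12961, 13983 and 11764 in wild-type and 12636, 16935 and 11287 in Ret-deficient kidneys. This is a difference of 0.06 (SE 0.20). Its 3 other probe sets, all dimmer, had 0.23 to 0.52. At all 4 the highest kidney was Ret-deficient replicate 2, and at 3 of the 4 the lowest was a wild-type kidney.

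Of the factors shared with blood progenitors, Tal1 and Lyl1 varied widely within each genotype (2.96-fold and 3.3-fold over the 6 arrays). Lmo2 varied less (1.37-fold). Tal1 read 6535, 2677 and 4151 in wild-type and 2307, 6835 and 3246 in Ret-deficient kidneys (log2 difference -0.17, SE 0.47; 0.16 without wild-type replicate 1). Lyl1, named after its values were seen, read 1605, 702.3 and 800.9 against 762.1, 1779 and 538.8. In both, wild-type replicate 1 and Ret-deficient replicate 2 stood above the other 4 kidneys. Lmo2, the adaptor that joins Tal1 to GATA factors, read 8518, 6215 and 7984 against 6959, 7062 and 6702, with a difference of -0.12 (SE 0.18). Ret-deficient replicate 2 was the highest array in 5 of the 6 factors, and Lmo2 was the exception. On that array the 9 tested erythroid markers stood at a median log2 deviation of 1.53 from each gene's median over the 6 arrays. On the others these markers stood at -0.45 to 0.33, with 0.01 on wild-type replicate 1. The part of blood cells in the values of Tal1 and Lyl1 was not tested.

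Junction and adhesion genes were the group in which positive differences prevailed, 6 of 9, with a median of 0.03 and none past the test. Pecam1, the adhesion molecule used to stain vessels, read 737.8, 453.2 and 591.7 in wild-type and 1182, 951.0 and 670.6 in Ret-deficient kidneys. The lowest Ret-deficient kidney lay below the highest wild-type one, and the other pairs were ordered by genotype. The log2 difference of 0.63 (SE 0.27, adjusted p = 0.9237 in limma) was the highest of the 32 members, and it ranged from 0.44 to 0.92 over all alternatives. Cdh5, which encodes VE-cadherin, read 1380, 1392 and 2685 against 3029, 2651 and 2017, a difference of 0.55 (SE 0.31). Only wild-type replicate 3 kept its groups from separating. The difference was 0.86 without that array and 0.38 without wild-type replicate 1, which were the ends of its range over all alternatives. A second Cdh5 probe set, too dim for the test, did not repeat this, with 352.9, 116.8 and 278.6 against 280.6, 195.5 and 212.3.

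The other junction genes gave no common direction. Cldn5, the tight junction claudin of endothelium, read 8083, 3518 and 2670 against 4482, 3067 and 1788, a difference of -0.54 (SE 0.49) that became -0.08 without wild-type replicate 1. Emcn, a sialomucin of venous and capillary endothelium, read 4348, 4352 and 5323 against 4654, 3847 and 3432, a difference of -0.24 (SE 0.19). Both overlapped between the groups. Icam2 had 0.26 (SE 0.23), Clec14a -0.11 (SE 0.33), Cd93 0.05 (SE 0.19), Esam 0.03 (SE 0.37; 0.46 without wild-type replicate 1) and Cd34, a sialomucin of capillary endothelium, 0.02 (SE 0.17).

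The caveolar, nitric oxide and GTPase genes varied little between kidneys. Plvap, which forms the diaphragms of endothelial pores, read 9969, 9331 and 11035 against 12457, 10590 and 8409 (log2 difference 0.04, SE 0.20). Nos3, the endothelial nitric oxide synthase, read 462.5 to 574.4 on all 6 arrays. These genes showed no shift with genotype. Rasip1, which vessels need to open a lumen, read 870.9, 875.4 and 1029 in wild-type and 834.8, 844.3 and 787.4 in Ret-deficient kidneys. The groups did not overlap, but the gap was small and the difference of -0.16 (SE 0.16, adjusted p = 0.956 in limma) was about the size of its error. Rhoj, a GTPase of sprouting endothelium, read 6131, 7357 and 7795 against 8071, 7505 and 9880, a difference of 0.26 (SE 0.19) with overlap of a single pair of kidneys.

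Single kidneys differed more in these genes than the genotypes did. Wild-type replicate 1 was the highest array in 17 of the 32 members (53.1%, against 24.4% of all tested genes) and the lowest in 2 (6.2%, against 25.9%). Quantile normalization left these member counts at 17 and 2. Wild-type replicate 2 was the highest in 0 members and the lowest in 12 (37.5%, against 11.3% of all genes). The 2 extremes of the list were thus both wild-type, and with log2 deviations from each gene's 6-array median the member median was 0.23, -0.20 and 0.07 in wild-type and 0.00, -0.01 and -0.14 in Ret-deficient kidneys. In 12 of the 32 members the wild-type kidneys alone spanned more than 2-fold, and in 5 the Ret-deficient ones did. The median SD within groups was 0.37 for the members and 0.26 for all tested genes on the log2 scale.

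The balance of signs depended on both extremes. Without wild-type replicate 1 the list median was 0.13, with 20 of 32 members positive, and leaving out wild-type replicate 2 made it more negative, -0.19, with 26 of 32 negative. Neither gave a member past the threshold, and the share of negative differences over all genes was not computed for either. Without wild-type replicate 1 the sign turned in 9 of the 32 members: besides Vwf, Tie1, Ptprb and Tal1, these were Lyl1 (0.26), Mmrn2 (0.19), Clec14a (0.15), Aplnr (0.06) and Erg (-0.13). The excess of wild-type replicate 1 was not shared evenly: against the mean of the other wild-type kidneys it was 2.39 for Vwf, 1.39 for Cldn5, 1.31 for Ptprb, 1.27 for Kdr and 1.26 for Esam on the log2 scale. For Plvap it was -0.03, for Rhoj -0.30 and for Cdh5 -0.48. The high 3 prime to 5 prime ratios of this array stand beside these values, and their part in them was not tested.

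**Figure D3:**
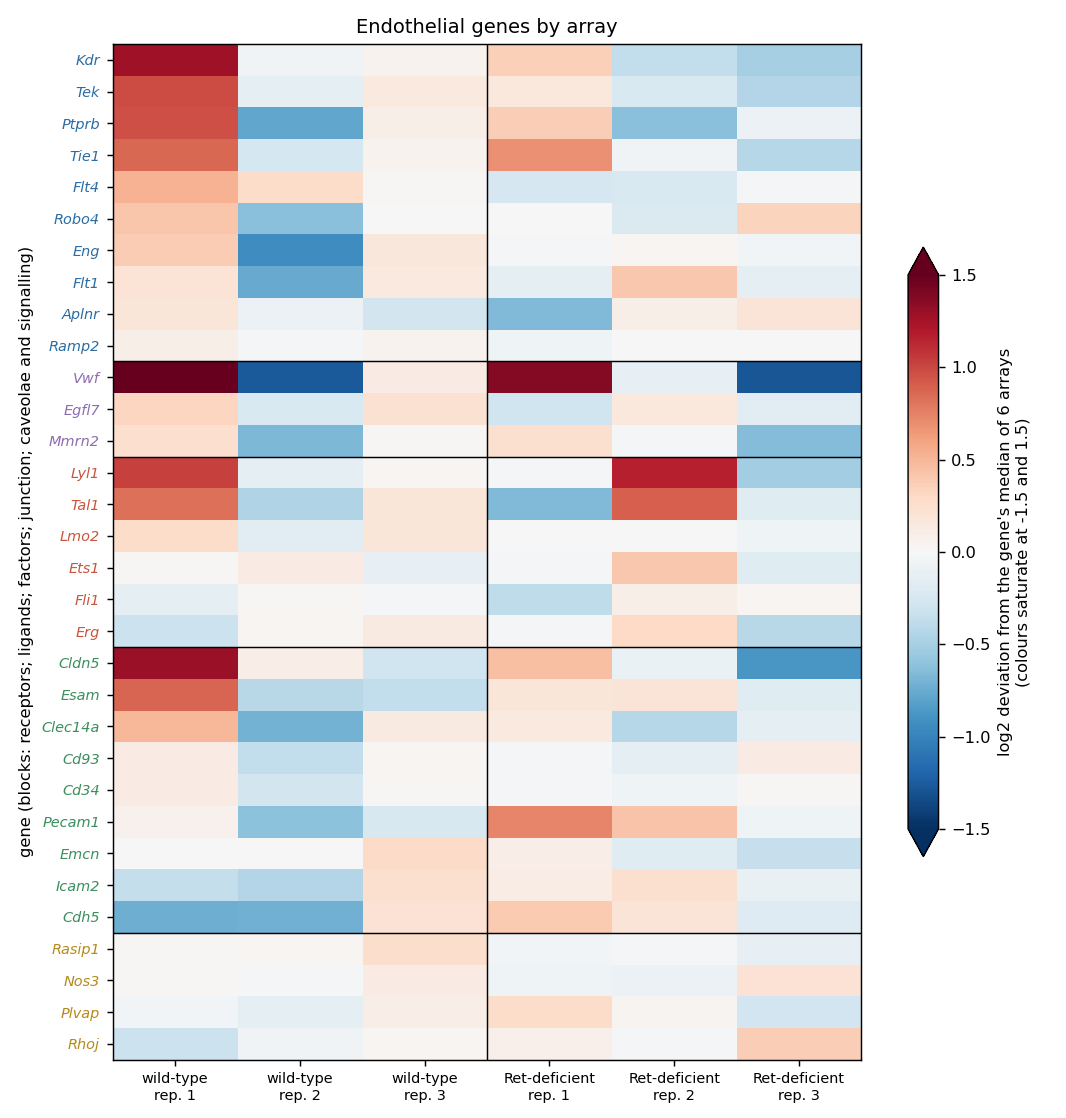
Log2 deviation of each of the 32 tested endothelial genes from its own median over the 6 arrays (colour, saturating at -1.5 and 1.5), with arrays in columns and genes in blocks by role, ordered by wild-type replicate 1. Kdr, Vwf and Cldn5 are high in wild-type replicate 1, and Lyl1 and Tal1 are high in wild-type replicate 1 and Ret-deficient replicate 2.

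With each array centred on its own endothelial median, which asks how the members stand relative to one another, Pecam1 had 0.70 (SE 0.26), Cdh5 0.61 (SE 0.32), Kdr -0.53 (SE 0.34) and Tek -0.43 (SE 0.28). None of the 32 passed (all adjusted p = 0.9997 in limma). The direction changed in 5 of the 32 members under this centring.

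Other genes of the vascular pathways, outside the 36, were also without a call. In the VEGF and angiopoietin pathway 13 genes were tested, 8 negative and 5 positive (median -0.02, from -0.12 with Ret-deficient replicate 1 left out to 0.04 with wild-type replicate 1 left out), and 0 passed the threshold. Vegfc, the ligand of Flt4, read 7432, 6927 and 7188 in wild-type and 7640, 13074 and 10650 in Ret-deficient kidneys (log2 difference 0.51, SE 0.22, adjusted p = 0.9237 in limma). Angpt1, the activating ligand of Tek, read 4730, 3255 and 3271 against 3257, 2172 and 2348, a difference of -0.53 (SE 0.24). The Vegfc groups did not overlap at this brightest probe set or at a dimmer one (0.54, SE 0.25), but they did at another (0.27, SE 0.43). Those of Angpt1 overlapped. Of 10 genes of the vascular Notch pathway 9 were negative, with a median of -0.21 (with 1 kidney left out, from -0.35 for wild-type replicate 2 to -0.05 for Ret-deficient replicate 2) and 0 past the threshold. Its positive member was Notch1, at 3902, 3524 and 4325 against 5945, 4617 and 4992 (0.40, SE 0.18), and Dll1, a Notch ligand, had -0.54 (SE 0.29). Many of the genes in both lists are also made by other kidney cells.

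Among 13 other tested transcription regulators of endothelium 8 had a negative and 5 a positive difference (median -0.03, from -0.18 with wild-type replicate 2 left out to 0.11 with wild-type replicate 1 left out), and 0 passed the threshold. Etv2, also listed, was too dim for the test. It read 1040, 602.9 and 381.5 against 395.9, 114.1 and 23.8, with overlap, and was not above background on 2 arrays. Klf4, a factor that endothelium induces under flow, read 1342, 860.3 and 1093 in wild-type and 7387, 5647 and 1545 in Ret-deficient kidneys (1.88 on the log2 scale, SE 0.57, adjusted p = 0.8668 in limma). The groups did not overlap, but Ret-deficient replicate 3 lay near the wild-type values. Sox17, an arterial factor, read 6827, 2951 and 3568 against 1911, 2203 and 3481, a difference of -0.76 (SE 0.37) with overlap. Its dimmer probe set read 439.7, 474.4 and 423.2 against 276.6, 326.6 and 380.9, without overlap (-0.43, SE 0.18, adjusted p = 0.9215 in limma).

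Lists for the kinds of vessel were short and gave 0 genes past the threshold. The 5 arterial genes had a median of -0.19 (0.02 leaving out wild-type replicate 1, -0.36 leaving out wild-type replicate 2), with Sox17 (above) and the Notch target Hey1 (-0.19, SE 0.24) at the smallest p. The 4 venous genes had a median of 0.09 (0.03 with Ret-deficient replicate 1 left out, 0.21 with wild-type replicate 1 left out), with Dab2 at 0.27 (SE 0.23) and Nr2f2, the factor of venous identity, at 0.14 (SE 0.15). Of the lymphatic genes Prox1, the factor of lymphatic identity, read 3083, 2470 and 1903 against 2434, 1798 and 1271 (-0.46, SE 0.29), and Pdpn had 0.01. Lyve1, a lymphatic and macrophage receptor, was too dim for the test. The haemogenic list had 2 tested genes, Itga2b with 0.48 (SE 1.11) and Gfi1b with -0.07 (SE 0.38), and Itga2b read 24.9 in wild-type replicate 2, which was not above background.

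Markers of the cells that touch or fill vessels varied from kidney to kidney. The 6 tested megakaryocyte and platelet genes had a median difference of 0.11 (-0.66 without wild-type replicate 2 to 0.61 without Ret-deficient replicate 3) with 0 past the threshold, and Gp9 and Gp1bb, platelet receptor subunits, had 0.40 (SE 0.47) and 0.27 (SE 0.49). Summed over the 8 genes on the array, this list read 7881 to 34770 in wild-type and 8051 to 24459 in Ret-deficient kidneys. Of these 8 genes, 5 were above background on all 6 arrays. The sum was highest in wild-type replicate 1 and lowest in wild-type replicate 2, which were also the extremes of the endothelial sum (204765 and 146866). Its median deviations, 0.75, -1.17 and -0.02 in wild-type and 0.70, 0.04 and -0.94 in Ret-deficient kidneys, put the same kidneys high and low as Vwf did. The part of platelets in the Vwf signal was not tested.

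Erythroid genes read 171176 to 211495 in wild-type and 171612 to 262666 in Ret-deficient kidneys when the 10 on the array were summed, with 0 of 9 past the threshold and a median of 0.07 (-0.06 without Ret-deficient replicate 2 to 0.62 without Ret-deficient replicate 3). The smallest p belonged to Alas2, the first enzyme of haem synthesis in red cells, with 0.80 (SE 0.58), and to Epor, with 0.60 (SE 0.49). Macrophage genes summed to 19649 to 30676 and 24769 to 68326, the highest in Ret-deficient replicate 3, and all 8 tested ones were positive, their median being 0.59 (0.11 if Ret-deficient replicate 3 is left out, 0.96 if replicate 2 is) and 0 past the threshold, led by the complement genes C1qb (0.68, SE 0.33) and C1qc (0.94, SE 0.50). Mural cell genes summed to 44255 to 72538 and 40821 to 84591, with a median of 0.10 over 9 genes (from 0.01 to 0.30 with a kidney left out, wild-type replicate 3 and wild-type replicate 1) and 0 past the threshold, and Cspg4 and Pdgfrb, pericyte markers, had 0.65 (SE 0.47) and 0.25 (SE 0.24). No marker in these lists was listed at 0.

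The ureteric epithelium, in which Ret acts, served for comparison. Its 12 tested genes, Ret included, were all negative, with a median of -1.46 (-0.74 if Ret-deficient replicate 1 is left out) beside -0.05 for the endothelium and 0 past the threshold. Ret and Tfap2b had the smallest p, with -5.43 (SE 0.53) and -1.11 (SE 0.19). In Ret-deficient replicate 1, the kidney with the lowest epithelial median (-3.00), the endothelial median was 0.00. In Ret-deficient replicates 2 and 3, with epithelial medians of -0.09 and -0.53, it was -0.01 and -0.14. The kidney with the lowest epithelial median was thus not the one with the lowest endothelial median. These endothelial medians all lay within the wild-type range of -0.20 to 0.23, so no conclusion is drawn from their order. Nephron progenitor and stromal lists had medians of -0.02 (-0.14 with Ret-deficient replicate 3 left out, 0.05 with Ret-deficient replicate 1 left out) and 0.17 (0.10 with Ret-deficient replicate 3 left out), with 0 of 8 and 0 of 9 past the threshold. Gdnf and Osr1 had -0.97 (SE 0.21) and -0.46 (SE 0.34) in the former, and Dcn and Foxd1 1.20 (SE 0.28) and 0.93 (SE 0.35) in the latter. Of the 6 adrenal, gonad and liver markers, which would show neighbouring tissue, 1 was tested (Star, -0.38, SE 0.36), and their sum was 1060 to 1844 in wild-type and 1004 to 1335 in Ret-deficient kidneys.

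**Figure D4:**
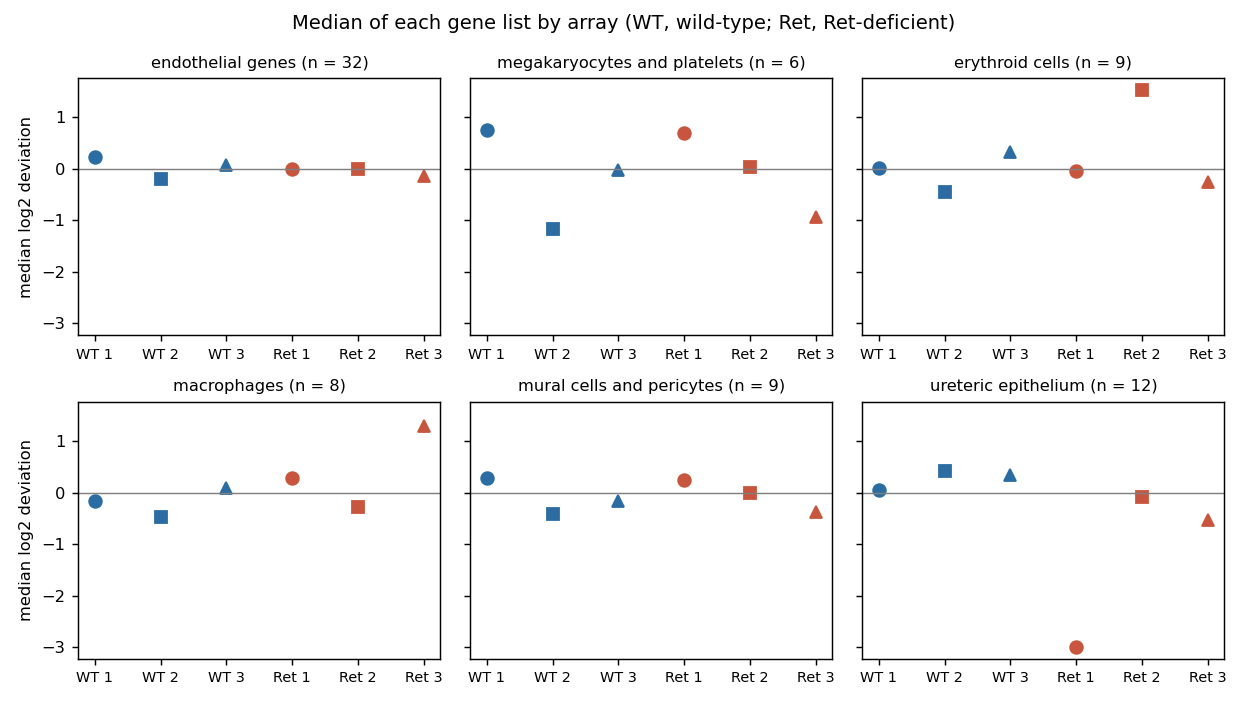
Median log2 deviation from each gene's 6-array median for 6 gene lists (n, tested genes) on each array, wild-type in blue and Ret-deficient in red, with symbols for the replicate numbers. The endothelial list stays between -0.20 and 0.23, while the ureteric list lies at -3.00 in Ret-deficient replicate 1 and the platelet list runs from -1.17 to 0.75.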

How the data were processed

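Per the submitters' processing notes the authors' deposited values are MAS5 signal intensities. Its version and scaling target are not given in these sources, and detection calls were not used. The values are linear, above 0 and share a trimmed mean (2% at each end) of 2500 on all arrays. They were used as log2(value + 16) without further normalization, since array medians differed by 0.42, under a limit of 0.5. Of 45101 probe sets 64 controls were left out, and 22519 with a mean log2 value at or above the median were tested. A filter on the mean linear signal was run first, and the log2 scale was taken after the counts under both were seen, to match earlier processing. Names came from the platform annotation, updated by gene ID with RefSeq (GRCm38.p6). A gene's brightest tested probe set represents it.

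Groups were compared with limma 3.58.1 in R 4.3.3 (lmFit, eBayes, no covariates; input through data.table, release 1.17.8), with Benjamini-Hochberg adjustment over all tested probe sets. Tested on simulated data of 22519 probe sets, it recovered 22.4% of changes of 1 log2 unit, 71.6% of 2 and 98.5% of 4. These were 67, 67 and 66 changed probe sets, with normal noise drawn independently for each. On the real arrays 0 of 22519 probe sets passed, and Ret, at -5.43, was among those that did not. The recovered shares therefore do not give the power of the real comparison. The members and lists were chosen with earlier results of these data known. Per-array values are given for Pecam1, Cdh5, Kdr, Tek, members whose groups do not overlap and the 3 of each role group with the smallest p; other lists name the 2 genes with the smallest p. Further genes were named after their values were seen. Alternatives were pseudocounts of 1 and 64, no filter or the top 30%, quantile, median or endothelial centring, a variance trend, array weights, the replicate block, each array left out, an adjusted p of 0.1 and averaging each gene's probe sets. The number of arrays limits the precision.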

Additional observations from a re-analysis of the deposited data

How the results depend on the processing

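No endothelial gene passed the threshold under any of 18 alternatives (smallest adjusted p 0.353 in limma, for Pecam1 with array quality weights), and 10 of the 32 kept their sign under all of them. Over all tested probe sets the count past the threshold, 0, became 1 with median centring or an intensity trend, stayed 0 at an adjusted p of 0.1, and was 0 to 1 with an array left out. The count with unadjusted p under 0.05, 1209, was 2265 without the brightness filter, 723 in the top 30 percent, 2533 with array quality weights and 838 to 2140 with an array left out; the cause was not tested beyond the number of probe sets in the filters. The count of member probe sets at that level, 0, was 1 without the filter (a Ptprb probe set at background), 1 in the top 30 percent and 1 with an intensity trend (Flt4), 1 with median centring and 1 with endothelial centring (Pecam1), 4 with array quality weights, 2 with the replicate block and 0 to 2 with an array left out. The list median of -0.05 ranged from -0.19 (without wild-type replicate 2) to 0.13 (without wild-type replicate 1) over left-out arrays. With array quality weights the medians of junction and adhesion genes and of ligands and secreted proteins were 0.30 and 0.41. The caveolar and GTPase median was 0.15 in the top 30 percent, where 2 genes remained, and 0.12 with median centring. Same-numbered arrays did not pair (correlations of 0.03, -0.04 and -0.12 between their deviations). With the replicate block 1141 probe sets had an unadjusted p under 0.05, and Pecam1 and Kdr were the 2 endothelial genes among them. The filter on mean linear signal was run first and became an alternative after the counts under both filters were seen. It gave 0 probe sets past the threshold and 1208 with unadjusted p under 0.05. With an array left out, role medians ranged from -0.34 to 0.12 (receptors), -0.37 to 0.25 (ligands), -0.15 to 0.06 (transcription factors), -0.10 to 0.15 (junction genes) and -0.04 to 0.06 (caveolar and GTPase genes), so each took both signs. What limits the data is the number of arrays, and 5 of the 63 member probe sets were not above background on at least 1 array.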
